A study of Mus musculus with 4 samples.

Results

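Sinusoidal endothelial cells line the capillaries of the liver, and stellate cells lie beside them in the space between the endothelium and the hepatocytes. The genes described here are 40 markers of both cell types, 23 for the endothelium (Stab1 to Rspo3) and 17 for stellate cells and matrix (Des to Colec11), taken from a list of names out of 37315 genes in the count files. All 40 were matched to 1 Ensembl identifier each. They were measured by RNA sequencing of whole liver from 23-week-old C57BL/6 mice, in 2 libraries from animals with a synonymous mutation of Foxo1 and 2 libraries from wild type animals. A synonymous mutation changes the coding sequence but not the amino acid, and Foxo1 is a forkhead transcription factor restrained by insulin. The labels do not say where in the gene the mutation lies or whether each library came from its own animal, so p-values measure the spread between these libraries, which may be technical.

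The sinusoidal endothelium has open pores and no continuous basement membrane, and it clears waste proteins and sugars from blood through scavenger receptors. It also secretes signals to hepatocytes, among them BMP2, which induces hepcidin, and WNT and R-spondin proteins, which set the pericentral programme. Stellate cells store vitamin A in the healthy liver and turn into contractile, collagen-producing cells in fibrosis. In bulk tissue fewer cells of a type and less RNA per cell cannot be told apart.

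Promoters of 25 members, with 28 start sites, were found in RefSeq's table for GRCm38.p6, each from 250 bases before to 50 bases after the start. They were searched on both strands for TGTTTAC, the core bound by forkhead factors such as Foxo1, and for AGATAA, which GATA factors bind. The other letters searched were CAGGAAG, bound by ETS factors, which drive many endothelial genes, and the E-box CACGTG. The forkhead letters were in the promoters of 2 genes, Hgf and Col6a1, or 2 of 28 start sites, against 3.65% of 32851 promoters in the table. The GATA letters were in 4 of 28 (Colec11, Hand2, Rgs5 and Tek) against 11.2%, the ETS letters in 8 of 28 (Col6a1, Colec11, Egfl7, Ehd3, Stab1, Tgfb1 and Timp1) against 13.3%, and the E-box in 1 of 28 (Reln) against 7.15%. A match is only a match of letters, and the absence of one says nothing about binding elsewhere. Each stretch printed begins 250 bases before the start, reads 5′ to 3′ on the strand of the gene, and ends at the base before the start, or earlier where a GENCODE exon begins upstream of it (125 bases before the start in Col6a1 and 28 in Egfl7).

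The promoters of Hgf and Col6a1 are shown because they hold the forkhead letters, in capitals. Both matches lie on the opposite strand and so read GTAAACA.
Hgf (chr5:16553245-16553494, plus strand): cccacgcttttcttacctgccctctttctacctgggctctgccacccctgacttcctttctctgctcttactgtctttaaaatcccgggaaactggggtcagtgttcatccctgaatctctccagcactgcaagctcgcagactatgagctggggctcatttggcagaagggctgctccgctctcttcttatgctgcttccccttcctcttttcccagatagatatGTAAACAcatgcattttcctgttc
Col6a1 (chr10:76726169-76726294, minus strand): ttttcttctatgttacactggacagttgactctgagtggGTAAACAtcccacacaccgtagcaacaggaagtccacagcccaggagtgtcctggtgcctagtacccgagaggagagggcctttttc

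The promoters of Stab1, Egfl7 and Tgfb1 are shown because they hold the ETS letters, in capitals (CAGGAAG, or CTTCCTG on the opposite strand). They were picked from the 7 genes with these letters and do not represent their classes.
Stab1 (chr14:31168642-31168891, minus strand): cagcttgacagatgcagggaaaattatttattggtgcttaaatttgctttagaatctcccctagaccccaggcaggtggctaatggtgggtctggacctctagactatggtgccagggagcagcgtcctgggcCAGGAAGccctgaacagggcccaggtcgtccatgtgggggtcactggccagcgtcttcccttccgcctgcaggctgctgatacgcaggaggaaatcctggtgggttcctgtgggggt
Egfl7 (chr2:26580833-26581055, plus strand): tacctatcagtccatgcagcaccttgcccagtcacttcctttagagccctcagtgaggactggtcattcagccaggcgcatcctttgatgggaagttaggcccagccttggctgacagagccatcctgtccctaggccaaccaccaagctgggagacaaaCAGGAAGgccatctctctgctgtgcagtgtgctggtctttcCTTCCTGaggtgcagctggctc
Tgfb1 (chr7:25686752-25687001, plus strand): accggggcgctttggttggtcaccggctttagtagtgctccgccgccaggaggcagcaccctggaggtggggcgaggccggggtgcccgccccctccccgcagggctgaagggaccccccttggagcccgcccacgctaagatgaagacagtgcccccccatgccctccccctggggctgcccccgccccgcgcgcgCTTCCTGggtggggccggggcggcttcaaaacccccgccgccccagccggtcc

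The libraries held 95908652 and 83594287 counts in the mutant group and 80975687 and 73551737 in the wild type group. Levels are normalised CPM (counts scaled to library size with TMM factors), and fold changes are mutant over wild type on the log2 scale. Foxo1 itself was at 33.6 and 53.4 CPM in mutant libraries and at 44.0 and 54.8 CPM in wild type libraries, and edgeR put its log2 fold change at −0.18 (SE 0.30, adjusted p = 0.9999). Counts cannot show the mutation.

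The markers were present in the tissue as labelled. Of the 40, 39 had counts in all 4 libraries, and the same 39 passed the filter on low counts. The exception was Timp1, an inhibitor of matrix metalloproteinases that activated stellate cells make, with 9 and 1 counts in mutant libraries and 0 and 5 in wild type libraries. This is near the floor of 3 counts, so no fold change is given. Other genes of the same cells were there too. Lrat, which makes the retinyl esters that stellate cells store, was at 17.1 and 28.8 CPM in mutant libraries and at 16.1 and 23.4 CPM in wild type libraries.

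No member passed the threshold of an adjusted p below 0.05. Of 23 endothelial and 16 stellate and matrix members tested, 0 rose and 0 fell in edgeR, DESeq2 or limma-voom, where 0.341% of all 14657 genes tested passed in edgeR (0.28% higher and 0.0614% lower), 0.764% in DESeq2 and 0.0478% in limma-voom. At an unadjusted p below 0.05, edgeR gave 1 endothelial member (Eng, lower) and 3 stellate and matrix members (Acta2 and Tgfb1, higher, and Col3a1, lower), beside 6.19% of all genes (3.97% higher and 2.22% lower). By the same unadjusted criterion DESeq2 gave 0 and 2, beside 5.01% of all genes, and limma-voom gave 1 and 2, beside 5.99%. The median log2 fold change was −0.02 in each class and −0.0013 over all genes tested. The log2 fold change was above 0 for 10 of 23 endothelial and 7 of 16 stellate and matrix members, beside 49.7% of all genes. The range was narrow for the endothelial genes, from −0.21 for Eng to 0.17 for Rspo3, and wider for the stellate and matrix genes, from −0.42 for Col1a1 to 1.14 for Acta2.

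The intervals show what size of difference remains possible. The 95% confidence interval lay within a 1.5-fold change in either direction (0.58 on the log2 scale) for 21 of 23 endothelial and 13 of 16 stellate and matrix members, against 60% of all genes tested. The width of an interval depends on a gene's counts, and the share over all genes was not matched for level. The median SE was 0.12 for endothelial members, 0.15 for stellate and matrix members and 0.15 over all genes tested. The bound was chosen after the values were seen. The members outside it were Rspo3 and Wnt9b among the endothelial genes and Acta2, Tgfb1 and Col1a1 among the others.

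**Figure D1:**
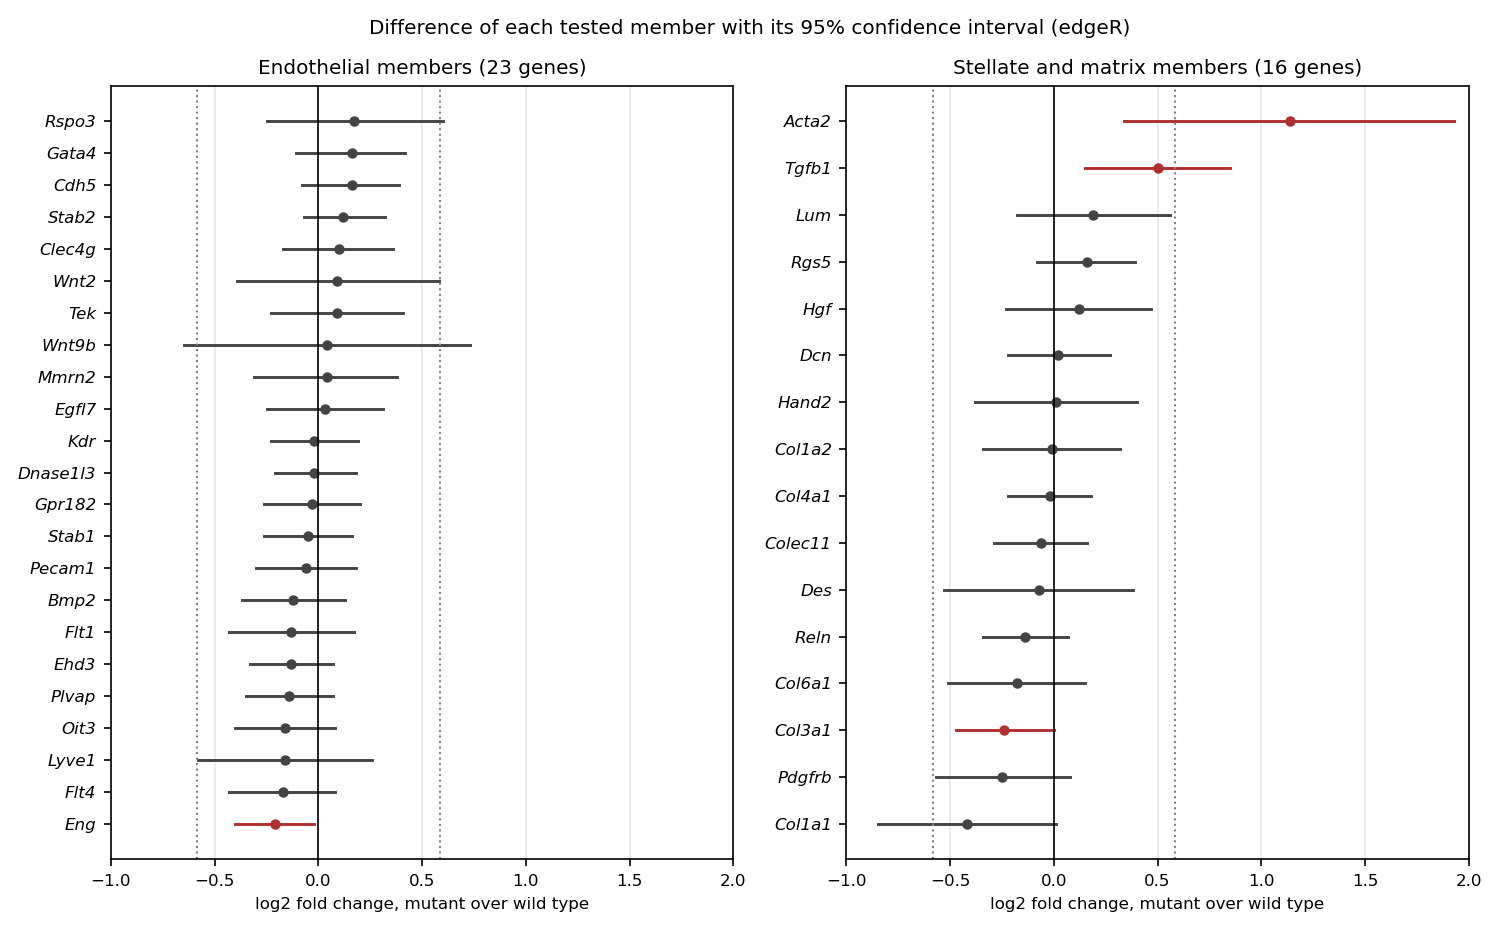
Log2 fold change of mutant over wild type for the 39 tested members (points) with 95% confidence intervals (lines), endothelial members on the left and stellate and matrix members on the right. Dotted lines mark a 1.5-fold change either way, and red marks an unadjusted p below 0.05, which holds for Eng, Acta2, Tgfb1 and Col3a1. Endothelial genes lie between −0.21 and 0.17, and Acta2 stands highest at 1.14.

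The summed level of each class was close in both groups. The 23 endothelial genes added up to 469.5 and 477 CPM in mutant libraries and to 482 and 495 CPM in wild type libraries, a ratio of means of 0.97. Both mutant sums were below both wild type sums. The 17 stellate and matrix genes added up to 372 and 344 CPM in mutant libraries and to 341 and 381 CPM in wild type libraries, a ratio of 0.99, with overlapping groups. With 2 against 2 libraries an exact permutation test cannot reach a p of 0.05, and no test was made of these sums.

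Markers of Kupffer cells, the resident macrophages that share the sinusoid with the endothelium, differed in the same libraries. Their 13 genes added up to 544 and 614 CPM in mutant libraries and to 357 and 380 CPM in wild type libraries, a ratio of 1.57. Of the 13, 6 rose past the threshold in edgeR (Clec4f, Timd4, Cd5l, Csf1r, C1qb and Lyz2), 10 in DESeq2 and 1 in limma-voom. Of all genes tested, 0.341%, 0.764% and 0.0478% passed in these tools, in either direction. The median log2 fold change of the 13 was 0.64. The edgeR count was 4 without mutant replicate 1 and 0 without any other single library, and the median then ranged from 0.50 to 0.79. The endothelial sum over the Kupffer sum was 0.863 and 0.777 in mutant libraries and 1.35 and 1.30 in wild type libraries. Hepatocyte markers, 10 genes led by Alb, had a ratio of sums of 0.92, a median of 0.07 and 0 members past the threshold in edgeR, with 0 at an unadjusted p below 0.05 and 0 in DESeq2 or limma-voom.

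**Figure D2:**
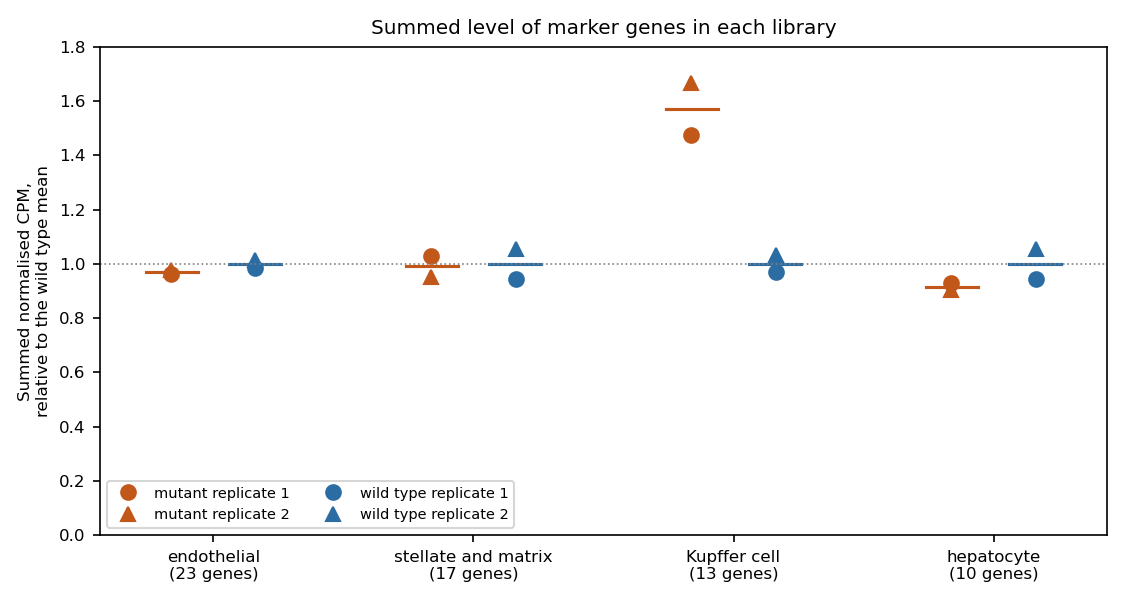
Summed normalised CPM of 4 marker lists in each library, divided by the wild type mean of that list, with short lines for group means (n = 2). Endothelial and stellate sums of the mutant libraries lie near 1 (ratios of means 0.97 and 0.99), the Kupffer cell sums lie above it (1.57), and the hepatocyte sums lie below it (0.92).

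Levels within the classes spanned a wide range. Per kilobase of exon, and averaged over all 4 libraries, Plvap, which forms the diaphragms of endothelial pores, was the highest endothelial member with 13.75 CPM per kb (below Ehd3 and Eng per kilobase of the longest coding transcript). Eng, a TGF beta co-receptor, followed with 12.7, and Wnt9b was the lowest with 0.242. Decorin (Dcn), a small collagen-binding proteoglycan, was the highest stellate and matrix member with 26.8 CPM per kb, ahead of the secreted lectin Colec11 with 11.95. Decorin alone made up 43.0% to 45.1% of the CPM of that class in mutant libraries and 41.4% to 44.5% in wild type libraries. In this order 16 of 22 pairs of neighbours in the endothelial class and 9 of 16 in the other class overlapped between libraries, so the order of those neighbours lies within their spread.

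**Figure D3:**
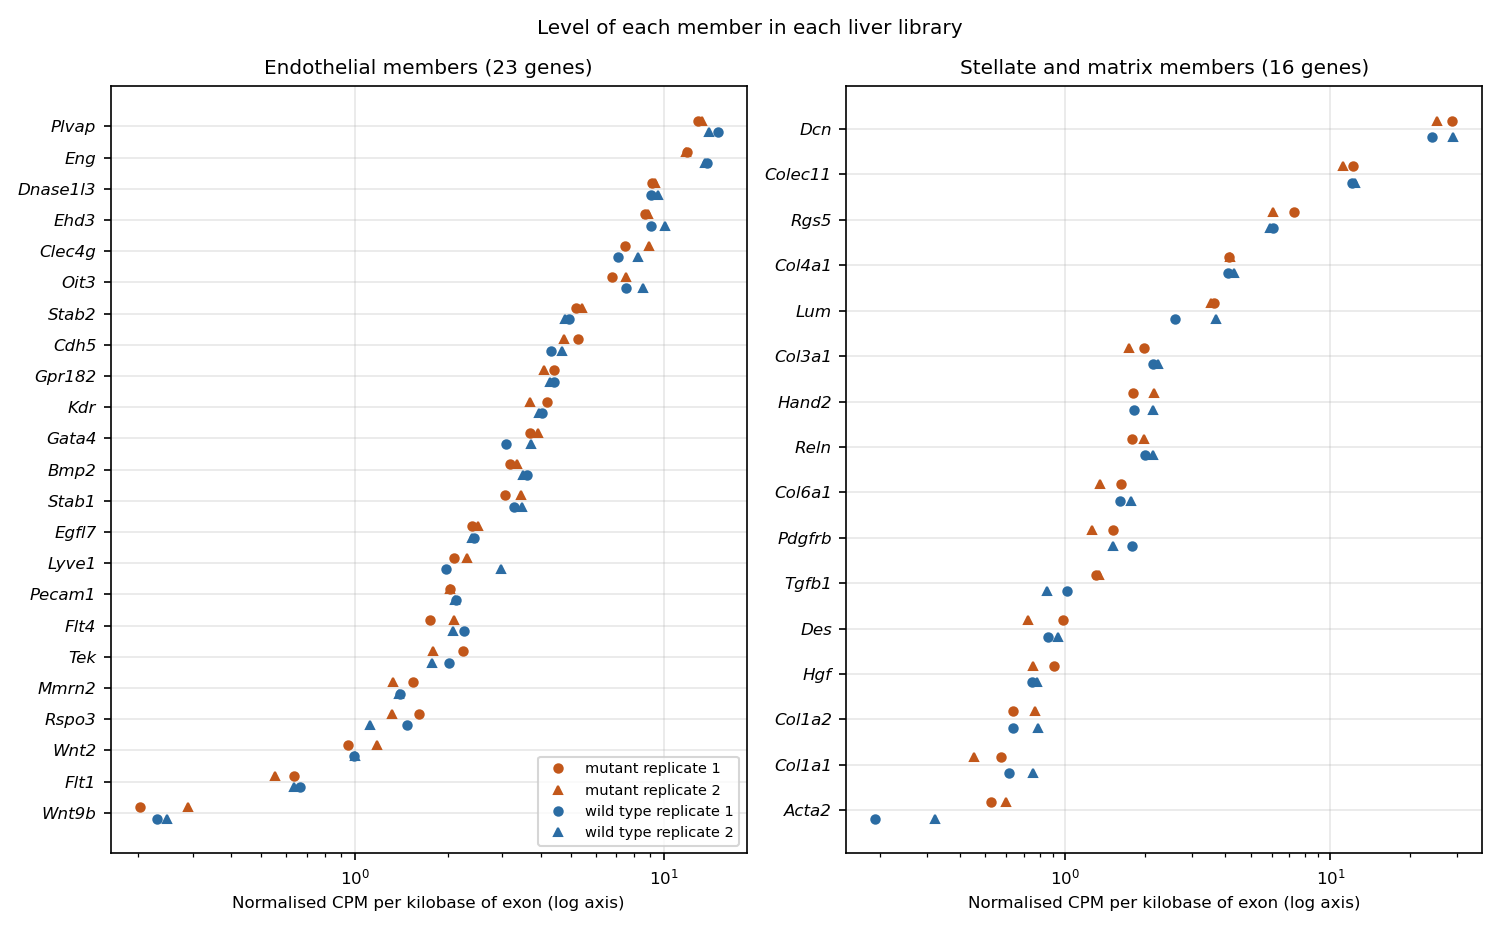
Level of each tested member in each library, in normalised CPM per kilobase of exon on a log axis, ordered by the mean of the 4 libraries. Mutant points lie just above the wild type points of the same gene. Plvap and Dcn lead their classes with 13.75 and 26.8 CPM per kb, and the libraries of both groups overlap for most genes. Timp1 is not drawn.

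The scavenger and clearance genes of the endothelium were at like levels in both groups. Stab2, the main hyaluronan-clearing receptor of the sinusoid, was at 45.5 and 47.4 CPM in mutant libraries and at 43.3 and 42.0 CPM in wild type libraries (log2 fold change 0.12, SE 0.09, edgeR adjusted p = 0.979). Both mutant libraries were above both wild type libraries. Its relative Stab1, which macrophages also make, was at 31.4 and 35.4 CPM in mutant libraries and at 33.7 and 35.65 CPM in wild type libraries (−0.05, 95% interval −0.26 to 0.16). The Stab2 level over the Stab1 level was 1.45 and 1.34 in mutant libraries and 1.28 and 1.18 in wild type libraries.

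Lyve1, a hyaluronan receptor of sinusoidal and lymphatic endothelium, was at 6.12 and 6.75 CPM in mutant libraries and at 5.75 and 8.65 CPM in wild type libraries, where replicate 2 was the highest of the 4. The lectin receptor Clec4g and the secreted DNase Dnase1l3, which degrades DNA of dead cells, had log2 fold changes of 0.10 and −0.02. Clec4g was at 18.3 and 21.9 CPM in mutant libraries and at 17.5 and 20.2 CPM in wild type libraries, and Dnase1l3 was at 47.1 and 48.0 CPM in mutant libraries and at 46.8 and 49.3 CPM in wild type libraries. In both the groups overlapped. Ehd3, a membrane trafficking protein, Oit3, a zona pellucida domain protein, and Gpr182, a chemokine-scavenging receptor, had log2 fold changes of −0.13, −0.16 and −0.03. Ehd3 was lower in both mutant libraries (56.7 and 58.1 CPM) than in both wild type libraries (59.4 and 65.9 CPM), a gap smaller than the spread between the wild type libraries. Oit3 was at 18.9 and 21.0 CPM in mutant libraries and at 20.9 and 23.7 CPM in wild type libraries. Gpr182 was at 17.4 and 16.1 CPM in mutant libraries and at 17.4 and 16.8 CPM in wild type libraries. Both overlapped between groups, Oit3 by a narrow margin. Among these 8 genes 2 had groups that did not overlap, 1 higher and 1 lower, where 17% of all genes tested did so in each direction.

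Receptors that carry growth signals into the endothelium included the only endothelial member with an unadjusted p below 0.05 in edgeR. Eng (GRCm38 chr2:32646595-32682669, plus strand; its exons overlap those of Fpgs on the opposite strand by 61 bases) was at 47.85 and 47.7 CPM in mutant libraries and at 55.6 and 54.9 CPM in wild type libraries. The groups did not overlap, with means of 47.8 ± 0.131 CPM in mutant liver and 55.2 ± 0.451 CPM in wild type liver (SD, n = 2 each). With 3968 to 4607 counts per library these SDs lie below counting error, so the distance relative to replicates says little. The log2 fold change of Eng was −0.21 (SE 0.09, 95% interval −0.40 to −0.02), between −0.22 and −0.20 with any 1 library left out. With all libraries it did not pass over all genes (edgeR adjusted p = 0.710). The test draws each gene's spread towards that of other genes, and the SE is therefore larger than the replicates of Eng alone would give.

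The 95% intervals of the VEGF receptors included 0. Kdr (VEGFR2), the main signalling receptor for VEGF-A, was at 37.7 and 33.2 CPM in mutant libraries and at 36.3 and 35.6 CPM in wild type libraries, a log2 difference of −0.02 (95% interval −0.23 to 0.19). Flt1 (VEGFR1), a decoy for the same ligand, and Flt4 (VEGFR3), the receptor for VEGF-C, had log2 fold changes of −0.13 (SE 0.14) and −0.17 (SE 0.12). Tek (TIE2), the angiopoietin receptor, had one of 0.09 (SE 0.15). Flt1 was at 8.59 and 7.47 CPM in mutant libraries and at 9.01 and 8.59 CPM in wild type libraries, with both mutant libraries below both wild type libraries. Flt4 was at 14.4 and 17.2 CPM in mutant libraries and at 18.6 and 17.1 CPM in wild type libraries, and only its mutant replicate 1 stood below both wild type libraries. Tek was at 10.6 and 8.45 CPM in mutant libraries and at 9.48 and 8.40 CPM in wild type libraries, with mutant replicate 1 the highest of the 4. The 5 receptors added up to 119 and 114.0 CPM in mutant libraries and to 129 and 125 CPM in wild type libraries, and their median log2 fold change was −0.13. Their ligands were a separate list of 7 genes, of which 6 were tested and 0 passed in edgeR, DESeq2 or limma-voom. Vegfa was at 143.5 and 138 CPM in mutant libraries and at 144 and 147.5 CPM in wild type libraries. Vegfc was at 1.996 and 1.195 CPM in mutant libraries and at 2.64 and 2.39 CPM in wild type libraries (−0.65, SE 0.27, edgeR adjusted p = 0.720). It was the 1 ligand of 6 tested with an unadjusted p below 0.05 in edgeR, beside 6.19% of all genes. The log2 fold change of Vegfc was −1.07 without mutant replicate 1 and −0.34 without mutant replicate 2.

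Junction and vessel wall genes moved little. Pecam1, a cell adhesion protein of all endothelium, was at 12.6 and 12.7 CPM in mutant libraries and at 13.2 and 13.1 CPM in wild type libraries (−0.06, 95% interval −0.30 to 0.18). Cdh5 (VE-cadherin), which holds endothelial junctions together, was at 22.1 and 19.9 CPM in mutant libraries and at 18.1 and 19.65 CPM in wild type libraries (0.16, SE 0.11). The secreted vessel protein Egfl7, the matrix protein Mmrn2 and Plvap had log2 fold changes of 0.03, 0.04 and −0.14. Plvap was at 25.6 and 26.4 CPM in mutant libraries and at 29.6 and 27.7 CPM in wild type libraries, lower in both mutant libraries. Among all 23 endothelial members the groups did not overlap for 2 that were higher and 6 that were lower. Of all genes tested, 17% did so in each direction. Egfl7 was at 8.57 and 8.99 CPM in mutant libraries and at 8.69 and 8.54 CPM in wild type libraries. Mmrn2 was at 6.11 and 5.27 CPM in mutant libraries and at 5.57 and 5.52 CPM in wild type libraries, and in Egfl7 and Mmrn2 the groups overlapped. Gata4, a transcription factor that keeps the sinusoidal identity and that stellate cells also make, was at 14.35 and 15.2 CPM in mutant libraries and at 12.1 and 14.4 CPM in wild type libraries (0.16, SE 0.12).

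Of the signals that the endothelium sends to hepatocytes, the best measured was Bmp2. It was at 11.3 and 11.9 CPM in mutant libraries and at 12.8 and 12.5 CPM in wild type libraries, with a log2 fold change of −0.12 (95% interval −0.37 to 0.13). Rspo3, which strengthens WNT signals, was at 4.97 and 4.08 CPM in mutant libraries and at 4.55 and 3.47 CPM in wild type libraries (0.17, SE 0.19). Wnt2 was at 2.14 and 2.67 CPM in mutant libraries and at 2.24 and 2.26 CPM in wild type libraries (0.09, SE 0.22). Wnt9b, from the central vein, had 87 and 109 counts in mutant libraries and 86 and 81 in wild type libraries, and its interval of −0.65 to 0.73 is the widest of the endothelial class.

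Genes downstream of these signals in hepatocytes were also examined. Of 10 pericentral WNT targets 0 passed in edgeR, DESeq2 or limma-voom and 0 had an unadjusted p below 0.05 in any of them, with a median log2 fold change of 0.05. The glutamine synthetase gene Glul was at 913.5 and 816 CPM in mutant libraries and at 855 and 862 CPM in wild type libraries. Of 19 receptors and partners for WNT, BMP and HGF signals 0 passed, likewise with 0 at an unadjusted p below 0.05 (median −0.01). Of 7 genes of the BMP and hepcidin response 1 rose past the threshold in edgeR (Id3), 2 in DESeq2 (Id2 and Id3) and 0 in limma-voom. The shares over all genes, in either direction, were 0.341%, 0.764% and 0.0478%. Id3 is an inhibitor of helix-loop-helix factors that BMP induces and that several cell types make. It was at 20.27 and 20.30 CPM in mutant libraries and at 12.1 and 11.3 CPM in wild type libraries (0.79, SE 0.11, edgeR adjusted p = 0.0109). Its log2 fold change stayed between 0.75 and 0.84 with 1 library left out, where it no longer passed in any of the 4 fits, and it did not pass in limma-voom or without robust estimation. Hamp, which encodes hepcidin, was at 255 and 355.5 CPM in mutant libraries and at 330.3 and 279 CPM in wild type libraries, with overlapping groups.

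The 95% intervals of all 7 stellate identity genes included 0. Reln, a secreted glycoprotein that marks these cells, was at 42.3 and 46.85 CPM in mutant libraries and at 47.3 and 51.0 CPM in wild type libraries (−0.14, 95% interval −0.34 to 0.07). Pdgfrb, the receptor that drives stellate cell growth, was at 8.32 and 6.90 CPM in mutant libraries and at 9.77 and 8.32 CPM in wild type libraries (−0.25, SE 0.15, edgeR adjusted p = 0.951). The intermediate filament gene Des was at 3.69 and 2.71 CPM in mutant libraries and at 3.22 and 3.53 CPM in wild type libraries, so the mutant libraries enclosed both wild type values. Hgf, a growth factor for hepatocytes, the transcription factor Hand2 and Colec11 had log2 fold changes of 0.12, 0.01 and −0.06. Rgs5, a pericyte regulator of G protein signalling, had one of 0.16 (SE 0.11). Rgs5 was at 33.2 and 27.5 CPM in mutant libraries and at 27.7 and 26.9 CPM in wild type libraries, with mutant replicate 1 above the other 3 libraries. Hgf was at 6.53 and 5.45 CPM in mutant libraries and at 5.39 and 5.63 CPM in wild type libraries. Hand2 was at 4.24 and 5.11 CPM in mutant libraries and at 4.27 and 5.04 CPM in wild type libraries, where the replicates differed more than the groups. Colec11 was at 19.8 and 18.1 CPM in mutant libraries and at 19.6 and 20.0 CPM in wild type libraries.

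Among the matrix genes both fibrillar collagens with the largest differences were lower. Col3a1 was at 19.4 and 17.1 CPM in mutant libraries and at 21.0 and 22.0 CPM in wild type libraries (−0.24, SE 0.11, unadjusted p = 0.0477 and adjusted p = 0.795 in edgeR). Col1a1 (GRCm38 chr11:94936224-94953042, plus strand) was at 3.76 and 2.98 CPM in mutant libraries and at 4.04 and 4.98 CPM in wild type libraries (−0.42, SE 0.20, edgeR adjusted p = 0.833). In both genes the groups did not overlap, as in 5 of 16 stellate and matrix members, beside 34.1% of all genes tested. Leaving out mutant replicate 2 brought the log2 fold change of Col1a1 to −0.26, and leaving out wild type replicate 2 gave the same value.

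Col1a2, whose product forms type I collagen together with that of Col1a1, did not share the direction in every library. It was at 7.91 and 9.59 CPM in mutant libraries and at 7.86 and 9.77 CPM in wild type libraries, a log2 fold change of −0.01 (SE 0.15). The replicates differed more than the groups. Col1a1 over Col1a2, in CPM, was 0.475 and 0.310 in mutant libraries and 0.514 and 0.510 in wild type libraries. The basement membrane gene Col4a1, which endothelium also makes, was at 31.0 and 31.2 CPM in mutant libraries and at 30.8 and 32.3 CPM in wild type libraries. Col6a1, Dcn and the keratan sulphate proteoglycan Lum had log2 fold changes of −0.18, 0.02 and 0.19. Dcn was at 168 and 148 CPM in mutant libraries and at 141 and 169.5 CPM in wild type libraries. Lum was at 8.91 and 8.69 CPM in mutant libraries and at 6.33 and 9.08 CPM in wild type libraries, with wild type replicate 1 below the other 3 libraries. Col6a1 was at 7.11 and 5.93 CPM in mutant libraries and at 7.05 and 7.74 CPM in wild type libraries, and all 3 overlapped between groups.

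Acta2 and Tgfb1, both linked to stellate activation, had the lowest unadjusted p-values of the 39. Acta2 (GRCm38 chr19:34241090-34255590, minus strand), smooth muscle actin, which vessel muscle also makes, had 110 and 110 counts in mutant libraries and 35 and 51 in wild type libraries. This was 1.16 and 1.31 CPM in mutant libraries and 0.422 and 0.706 CPM in wild type libraries, with no overlap. Its log2 fold change was 1.14 (SE 0.36, 95% interval 0.34 to 1.93), with an unadjusted p of 0.00864 and an adjusted p of 0.438 in edgeR. It was 0.81 without wild type replicate 1 and 1.55 without wild type replicate 2.

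Tgfb1 (GRCm38 chr7:25687002-25705077, plus strand), the cytokine that activates stellate cells and that macrophages and platelets also make, was at 6.60 and 6.73 CPM in mutant libraries and at 5.10 and 4.30 CPM in wild type libraries. The groups did not overlap, and the log2 fold change was 0.50 (SE 0.16, 95% interval 0.15 to 0.85, unadjusted p = 0.00825 and adjusted p = 0.435 in edgeR). Kupffer cell markers were higher in the same libraries, 6 of 13 past the threshold in edgeR, where 0.341% of all genes passed. These markers had sums of 544 to 614 CPM in mutant libraries and 357 to 380 CPM in wild type libraries, and none of the 13 was at 0. Their part in the level of Tgfb1 was not tested.

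Other contractile genes were set beside Acta2. Myh11, the smooth muscle myosin, was at 1.71 and 1.18 CPM in mutant libraries and at 0.880 and 0.650 CPM in wild type libraries (0.92, SE 0.33, edgeR adjusted p = 0.581). Tagln, which muscle and activated stellate cells make, was at 3.81 and 3.26 CPM in mutant libraries and at 3.19 and 4.51 CPM in wild type libraries, with overlapping groups. The list of portal fibroblast, vessel muscle and mesothelial markers added up to 8.09 and 6.91 CPM in mutant libraries and to 6.14 and 7.28 CPM in wild type libraries. Of its 8 tested genes 0 passed in edgeR, DESeq2 or limma-voom. The unadjusted p was below 0.05 for 2 in edgeR (Myh11 higher, Wt1 lower), 1 in DESeq2 and 2 in limma-voom. The shares over all genes were 6.19%, 5.01% and 5.99%. Cnn1 was at 0 in 1 wild type library. The part of vessel muscle in the level of Acta2 was not tested.

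**Figure D4:**
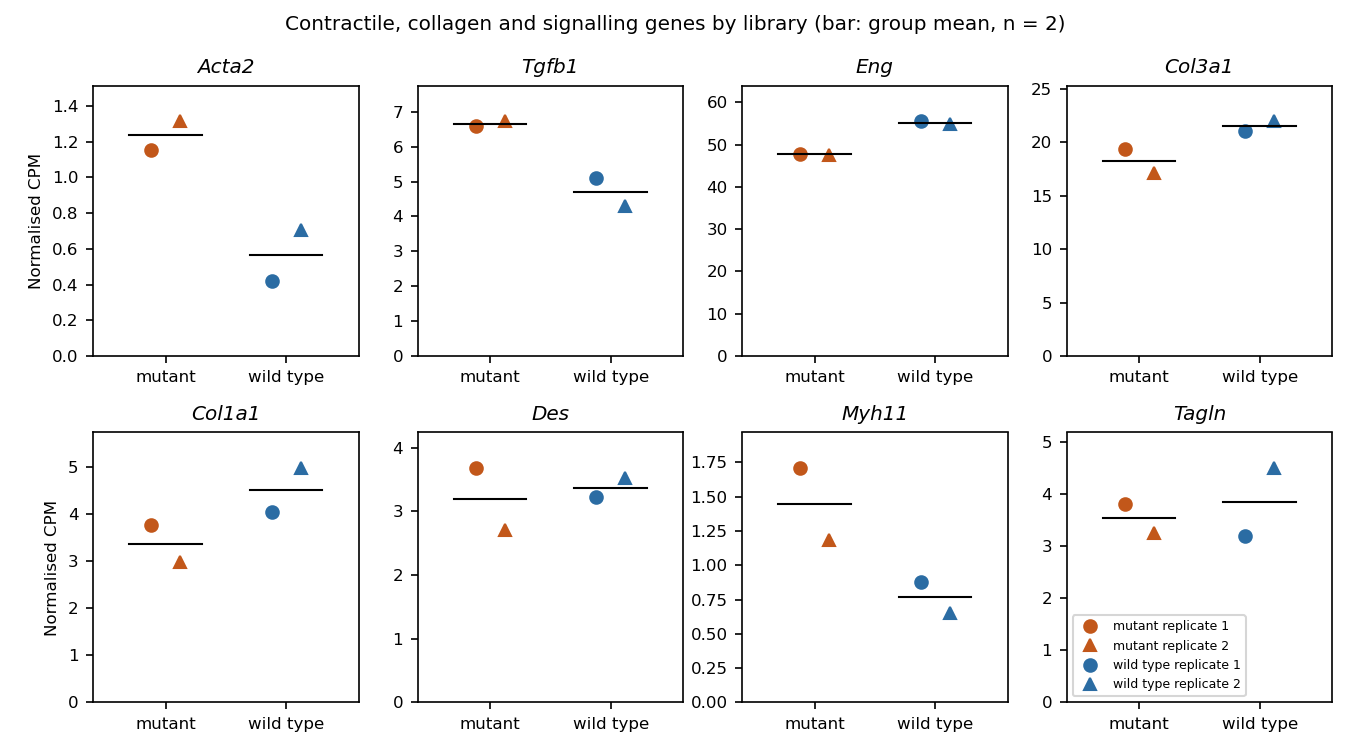
Normalised CPM of 8 genes in each library, with mutant libraries left of wild type libraries, and group means as bars (n = 2). Acta2, Tgfb1 and Myh11 are higher in both mutant libraries, Eng, Col3a1 and Col1a1 are lower in both, and Des and Tagln overlap between groups; none of the 8 passed the threshold.

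Further genes of the same cells were counted from lists of other markers. Of 36 tested endothelial genes 0 passed with any of the 3 tools. The unadjusted p was below 0.05 for 6 in edgeR, 5 in DESeq2 and 6 in limma-voom, beside 6.19%, 5.01% and 5.99% of all genes, and the median log2 fold change was 0.06. The lowest p-values were those of the leukocyte adhesion molecule Icam1, the latent TGF beta binding protein Ltbp4 and the mannose receptor Mrc1, which Kupffer cells also make. Icam1 was at 12.2 and 10.4 CPM in mutant libraries and at 7.92 and 8.47 CPM in wild type libraries (0.47, SE 0.13, edgeR adjusted p = 0.320). Ltbp4 and Mrc1 had log2 fold changes of −0.26 and 0.25.

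Of 34 other stellate and matrix genes 0 passed with any of the 3 tools. The unadjusted p was below 0.05 for 5 in edgeR, 4 in DESeq2 and 5 in limma-voom, beside the same shares of all genes, and the median was −0.04. Col14a1, a collagen of fibril surfaces, was at 42.5 and 38.0 CPM in mutant libraries and at 50.7 and 47.3 CPM in wild type libraries (−0.28, SE 0.10, unadjusted p = 0.0114 in edgeR). Col5a2, a minor fibrillar collagen, had a log2 fold change of 0.62 and the proteoglycan Prelp one of −0.23, so collagens were not all on one side. Of 14 genes of TGF beta and PDGF signalling 0 passed in any of these tools. Beside the same shares of all genes, the unadjusted p was below 0.05 for 2 in edgeR, 0 in DESeq2 and 2 in limma-voom. Among them was the receptor Tgfbr1, at 20.8 and 24.1 CPM in mutant libraries and at 19.3 and 17.9 CPM in wild type libraries (0.27, SE 0.11, edgeR adjusted p = 0.705).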

How the data were processed

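RNA from liver was sequenced as paired reads of 150 bp from TruSeq libraries of about 100 ng mRNA, per the labels' protocols, with a kit that does not mark strand. The authors deposited whole-number counts of reads for each Ensembl gene in every library. Per the submitters' processing notes the authors aligned reads with TopHat2 2.1.1 to mm10 and counted them with HTSeq 0.6.0; how reads over several genes were treated is not stated. Gene symbols and places came from GENCODE vM21 (GRCm38, the assembly of mm10), which held 35449 of 37315 identifiers (95.0%).

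Counts of all genes were fitted with edgeR 4.0.16 (R 4.3.3): filterByExpr with a minimum count of 10, TMM factors of 0.983 to 1.02, and the robust quasi-likelihood test with group as the only term and Benjamini-Hochberg adjustment over 14657 genes. The SE of a log2 fold change was taken from its F statistic. The spread between libraries of a group, which edgeR calls biological variation, was 13.1% and may be technical. The floor of 3 counts stands for 0.0313 to 0.0408 CPM, for counting error only. The chi-square per gene between 2 libraries was 61.7 to 106, far from the value of 1 that sampling noise gives, so no library was a duplicate. The fit was tested on 5 simulated sets with 200 changed genes each. It recovered 72.2% of 2-fold changes and 38.8% of 1.5-fold changes, and 5.8% of its calls were false. Most 1.5-fold changes were thus missed there. Lengths per kb are the union of exons.

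Alternatives were RLE and upper-quartile scaling, other filters, DESeq2 1.42.0, limma-voom (limma 3.58.1), a fit that was not robust, a block for the replicate number, and each library left out. The members and lists were chosen with earlier results of these data known, so lists are described by counts and medians and get no test of their own. In other lists the genes past the threshold were named, or else up to 3 with the lowest unadjusted p below 0.05. A gene that this rule names is not reported here. Exons of Stab1, Stab2, Clec4g, Gpr182, Eng, Egfl7, Rspo3, Des, Reln, Hand2 and Col4a1 overlap genes on the opposite strand, and those of Egfl7, Hgf and Col3a1 genes on the same strand, so reads there cannot be assigned with certainty; the longest such overlaps of a member with the opposite strand were 404 bases in Rspo3 and 461 in Hand2.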

Additional observations from a re-analysis of the deposited data

How the results depend on the processing

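The count of members past the threshold was 0 in both classes under all 12 alternatives, while over all genes it ranged from 7 (limma-voom) to 258 (no filter). The class medians stayed within the spread between replicates, apart from the endothelial median with 1 library left out, which ranged from −0.06 (without mutant replicate 1) to −0.01. The stellate and matrix median then ranged from −0.11 to 0.07. The log2 ratio of summed levels ranged from −0.07 to −0.02 for the endothelial class and from −0.09 to 0.07 for the other. Scaling, filter and test turned no member's direction. Leaving out 1 library did so for 19 of 39 members, with ranges of log2 fold changes of −0.14 to 0.03 for Stab1, −0.43 to 0.16 for Lyve1, −0.04 to 0.22 for Clec4g, −0.05 to 0.02 for Dnase1l3, −0.09 to 0.02 for Gpr182, −0.12 to 0.07 for Kdr, −0.08 to 0.24 for Tek, −0.01 to 0.06 for Egfl7, −0.07 to 0.14 for Mmrn2, −0.07 to 0.25 for Wnt2, −0.24 to 0.27 for Wnt9b, −0.01 to 0.38 for Rspo3, −0.31 to 0.13 for Des, −0.13 to 0.14 for Hand2, −0.02 to 0.24 for Hgf, −0.16 to 0.15 for Col1a2, −0.06 to 0.01 for Col4a1, −0.10 to 0.16 for Dcn and −0.04 to 0.48 for Lum. The cause was not tested. Among members that kept their sign, the ranges were −0.20 to −0.05 for Ehd3, −0.25 to −0.07 for Oit3, −0.24 to −0.04 for Flt1, −0.31 to −0.05 for Flt4, 0.08 to 0.23 for Cdh5, −0.18 to −0.09 for Plvap, 0.03 to 0.30 for Gata4, −0.39 to −0.12 for Pdgfrb, −0.22 to −0.07 for Reln, 0.01 to 0.28 for Rgs5, −0.13 to −0.00 for Colec11 and −0.32 to −0.06 for Col6a1. They were −0.16 to −0.08 for Bmp2, 0.09 to 0.15 for Stab2, −0.07 to −0.05 for Pecam1 and −0.22 to −0.20 for Eng. The log2 fold change of Acta2 then ranged from 0.81 to 1.55, that of Tgfb1 from 0.39 to 0.63, that of Col3a1 from −0.33 to −0.15 and that of Col1a1 from −0.60 to −0.26. Same-numbered libraries did not deviate together (correlation of 0.0039 over genes). This value gives no sign of an effect of the replicate number over all genes. It cannot exclude one on part of the genes or tell whether the samples were paired. With the replicate block 0 members of either class passed, and the class medians were −0.02 and −0.02. Calls over all genes were 83 higher and 28 lower, beside 41 higher and 9 lower without the block. With the longest coding transcript as length, chosen after seeing the data, 4 of the 5 members highest per kilobase were the same, and Ehd3 (16.4 CPM per kb) and Eng (15.05) stood above Plvap (13.75). Among Kupffer cell markers 12 passed with no filter, 11 with the replicate block, 3 with a filter of 1 CPM and 1 without robust estimation. Over all genes, 197 higher and 61 lower of 23104 passed with no filter. With a filter of 1 CPM 21 higher and 3 lower of 11559 did so, and without robust estimation 6 higher and 2 lower of 14657. Depth limits Timp1, Acta2 (35 to 110 counts) and Wnt9b (81 to 109 counts).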

Other observations

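Ratios of related members within a library carry no scaling factor. Kdr over Flt1, both VEGF-A receptors, was 4.39 and 4.44 in mutant libraries and 4.03 and 4.14 in wild type libraries, in CPM and not per length. Wnt2 over Wnt9b was 2.34 and 2.05 in mutant libraries and 2.16 and 2.01 in wild type libraries. Acta2 over Des was 0.313 and 0.485 in mutant libraries and 0.131 and 0.200 in wild type libraries. Col3a1 over Col1a1 was 5.16 and 5.74 in mutant libraries and 5.21 and 4.41 in wild type libraries, with overlapping groups. These pairs were chosen after the values were seen, and no test was made of them.

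Differences of members between replicates and between groups were of like size, but the measures are unlike. A replicate difference is between single libraries, and a group difference is between groups of 2 libraries, which averages out part of the spread. Like size therefore does not show that the groups are equal. The median absolute log2 difference of an endothelial member was 0.15 between the mutant libraries, 0.08 between the wild type libraries and 0.12 between the groups. For a stellate and matrix member it was 0.22, 0.18 and 0.15, and over all genes tested 0.17, 0.16 and 0.12.

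Among blood and immune markers, Ptprc, carried by all leukocytes, was at 11.4 and 10.1 CPM in mutant libraries and at 6.55 and 6.05 CPM in wild type libraries (log2 fold change 0.77, edgeR adjusted p = 0.0405). It was the 1 gene called of 10 in the lymphocyte list, where 0.341% of all genes were called. The list was mixed, with log2 fold changes above 0 for 7 genes and below 0 for 3, from −1.30 to 2.66. Its 10 genes added up to 23.95 and 17.97 CPM in mutant libraries and to 16.33 and 28.55 CPM in wild type libraries, with overlapping groups. Ptprc was also called in DESeq2, but not in limma-voom, without robust estimation, with a filter of 1 CPM or with any 1 library left out. The globin gene Hbb-bt, uncertain because near-identical copies may share its reads, was at 15.5 and 16.2 CPM in mutant libraries and at 9.57 and 8.70 CPM in wild type libraries (0.79, edgeR adjusted p = 0.0145), the 1 gene called of 5 tested in the erythroid list. Hbb-bt was also called in DESeq2, but not in limma-voom, without robust estimation or with any 1 library left out. Of 6 cholangiocyte markers, led by Spp1, 0 passed in edgeR, DESeq2 or limma-voom and 0 had an unadjusted p below 0.05 in any of them.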
